A study of Drosophila melanogaster with 20 samples.

Results

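The diet-by-sex contrast compared, gene by gene, how RNA levels in the fly brain differed between 2 diets in males with how they differed between 2 diets in females. For each gene the male change (low protein, high carbohydrate food, LPHC, minus high protein, low carbohydrate food, HPLC) was computed on the log2 scale, and the female change was subtracted from it. The contrast covered 9766 of the 12441 genes in the deposited tables, namely those listed in both the male and the female table whose normalised value reached 10 in at least 5 libraries of each sex. Of the 11780 genes in both tables, 2014 were below that filter: 346 passed it in males only, 163 in females only and 1505 in neither sex. A further 3 genes passed it in males and 3 in females but were not in the other sex's table.

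RNA came from brains of W1118 flies, a white-eyed laboratory strain that the labels call wild-type, aged 4 to 7 days, with 5 libraries in each of 4 groups. Male LPHC food had a protein to carbohydrate ratio of 0:1 at 180 g/L, and male HPLC food a ratio of 1:1 at 180 g/L. Female LPHC food had a ratio of 1:2 at 360 g/L, and female HPLC food a ratio of 1:1 at 90 g/L. If the stated concentration is the sum of both nutrients, protein was 0 g/L on LPHC and 90 g/L on HPLC for males, whereas for females it was 120 g/L on LPHC and 45 g/L on HPLC. On the same reading, carbohydrate was 180 against 90 g/L for males and 240 against 45 g/L for females. Sex and diet recipe therefore cannot be told apart in this contrast: a difference between the sexes may follow the fly or the food. Whether a library is 1 brain or a pool is not in the labels, and nothing there ties replicates to separate cultures; p-values thus cover the spread between libraries, which may be technical.

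Flies sense dietary amino acids and sugars through the insulin and TOR pathways and through hormones released by the fat body, the tissue that takes the roles of liver and adipose tissue. Part of the fat body lies in the head around the brain, and its enzymes for amino acid, sugar and lipid metabolism are known to follow the diet. Glutathione transferases, cytochrome P450s and antioxidant enzymes, many of them targets of the transcription factor Nrf2 (cap-n-collar in flies), detoxify foreign and reactive compounds.

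Total depth was 13901684 to 35077559 recovered reads per library, and all 4 groups overlapped in depth. All 20 markers fixed for neurons were detected and passed the filter, and the neuron list made up 1.05 to 1.56% of the signal in male libraries and 0.456 to 0.666% in female libraries. RNA of other tissues was also present and moved with the diet. Fat body genes (15 of 19 tested, none at 0 in every library) took 0.896 to 1.08% of the signal in male HPLC and 0.269 to 0.448% in male LPHC libraries, and 13.98 to 16.81% in females on HPLC against 8.14 to 10.2% on LPHC. In females 13.4% of the HPLC signal and 7.74% of the LPHC signal came from the 3 yolk protein genes, which the fat body list includes. Without them the other 16 fat body genes took 1.30 to 1.71% of the female signal on HPLC and 1.30 to 1.55% on LPHC, which overlap, and 0.889 to 0.994% against 0.260 to 0.439% in males (an alternative added after seeing the data). Muscle genes rose from 0.944% to 1.58% of the male signal and stood at 0.736% and 0.737% in females (exact 2-sided permutation tests, adjusted over 22 comparisons, p = 0.0159 and 1). Gut genes fell from 0.128% to 0.0186% in males and from 0.174% to 0.103% in females (exact permutation tests, adjusted p = 0.0159 in each sex). In bulk RNA, fewer cells of a type and less RNA per cell cannot be told apart, and the part these tissues play in the results below was not tested.

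Many genes had a called difference between the male and female changes. The difference between the sexes was called (limma, Benjamini-Hochberg adjusted p under 0.05) for 5106 of 9766 genes, or 52.3%: the male change minus the female change was higher than 0 for 2217 (22.7%) and lower for 2889 (29.6%). Without adjustment 5623 genes were under 0.05. In males 5156 genes (52.8%) changed, 2340 higher (24.0%) and 2816 lower (28.8%) on LPHC. In females 3658 genes (37.5%) changed, 1825 higher (18.7%) and 1833 lower (18.8%). Both sexes were called for 2254 genes, which was 43.7% of the male and 61.6% of the female calls, and 1259 of those (55.9%) moved in opposite directions. That majority depended on the scale: it was 890 of 3098 (28.7%) when every library was given the same total and 1200 of 2448 (49.0%) with the same upper quartile.

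The opposite genes split into 695 that fell in males and rose in females (7.12%) and 564 that rose in males and fell in females (5.78%). The difference itself was also called for all 1259, which follows from opposite calls in the same fit and adds no support. A change of at least 2-fold in each sex was seen for 94 of the former and 9 of the latter. Genes that moved the same way with no called difference, termed shared here, numbered 201 higher (2.06%) and 300 lower (3.07%) on LPHC; not calling a difference does not show that the 2 changes were equal. Genes that moved the same way by unequal amounts, with the difference called, numbered 432 lower (4.42%) and 62 higher (0.635%). The male change was the larger in 383 of the 432 and in 20 of the 62. With the same total these classes numbered 266 lower and 447 higher, and with the same upper quartile 349 and 152, so the excess of lower genes reversed with the same total; 252 and 47 were in their class on all 3 scales. Differences of at least 2-fold were called for 1375 genes, 230 higher and 1145 lower.

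Across all 9766 genes, the male changes (SD 0.769 on the log2 scale) spread wider than the female ones (SD 0.495). Male and female changes were almost unrelated across genes (Pearson's r = 0.033, Spearman's rho = -0.051; 9766 genes of the same libraries, which are not independent replicates). How genes near 0 were classed depended on the scale. Giving every library the same total moved the median change of all genes from 0.01 to 0.26 in males and from -0.02 to 0.14 in females, and giving them the same upper quartile moved it to 0.17 and 0.00. Genes opposite with the male higher then numbered 220 and 674, and 129 were in that class on all 3 scales. Those opposite with the male lower numbered 670 and 526, with 441 on all 3 scales. The share of higher calls among called differences was 43.4% as deposited, 52.8% with equal totals and 59.0% with equal upper quartiles. The choice of these 3 scales as a joint criterion was made after seeing the data. The totals include the 3 yolk protein genes, which took 13.4% of the female HPLC and 7.74% of the female LPHC signal. Their part in the female results with the same total was not tested.

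**Figure D1:**
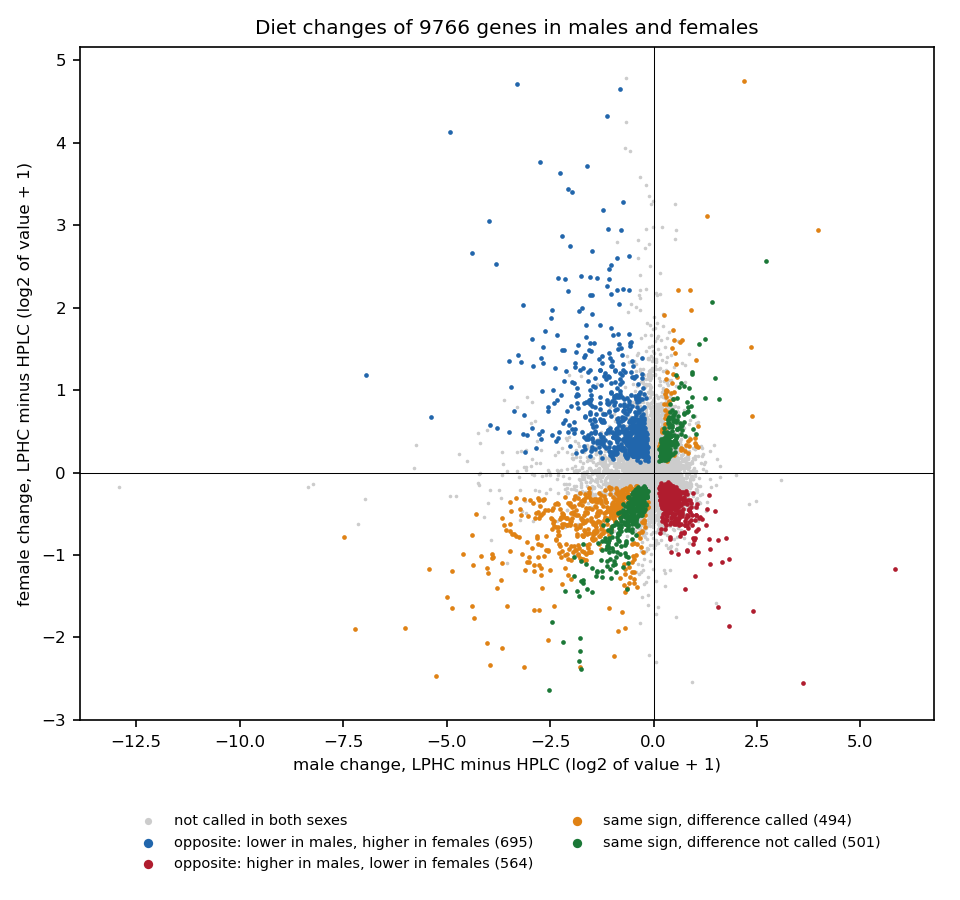
Change on LPHC against HPLC in females (vertical axis) and in males (horizontal axis), both as differences of mean log2(value + 1) over 5 libraries a group, 1 point per gene for 9766 genes. Blue (695) and red (564) points moved in opposite directions, orange (494) and green (501) points in the same direction; male changes reach further from 0 than female ones.

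Among the 16 genes with the smallest p for the difference, 8 in each direction, were Sirup, Men, tobi and Lsp2. Changes are given as log2 differences of value + 1 ± SE from the joint fit, with 5 libraries a group, and for low genes they are smaller than the true fold. Levels are normalised signal and were scaled separately for each sex, so they are compared within a sex only. In males, Sirup read 5574, 5704, 5354, 5635 and 5603 in the HPLC libraries and 16573, 16313, 11982, 17282 and 11277 in the LPHC libraries. In females, Sirup read 7569, 8699, 8417, 7580 and 6439 on HPLC and 3266, 3572, 3394, 4508 and 3237 on LPHC. Sirup, named for its rise on starvation and an assembly factor of respiratory complex II, stood higher in every male LPHC than in every male HPLC library and lower in every female LPHC library. Its changes were 1.38 ± 0.11 in males and -1.11 ± 0.11 in females, a difference of 2.48 ± 0.16 (adjusted p = 1.19e-11).

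The Men values were 50305, 43166, 50888, 43114 and 44492 in male HPLC libraries and 5787, 5184, 5392, 5447 and 4997 in male LPHC libraries. The female Men values were 51830, 52006, 58354, 48886 and 51731 on HPLC and 59108, 62346, 64268, 64303 and 62428 on LPHC. Men, the malic enzyme that supplies NADPH, did not overlap between diets in either sex. It changed by -3.11 ± 0.07 in males and 0.25 ± 0.07 in females, and the difference was -3.36 ± 0.10 (adjusted p = 1.29e-17). tobi, an alpha-glucosidase gene known as a target of insulin signalling, fell by 8.35 in males. Male libraries held tobi at 28121, 25028, 19482, 24516 and 18916 on HPLC and at 74.4, 58.6, 79.3, 71.6 and 65.4 on LPHC. Female libraries held tobi at 40597, 39686, 35624, 18536 and 44374 on HPLC and at 25440, 30353, 26993, 40408 and 30923 on LPHC. The male groups were far apart, while the female groups overlapped (change -0.17, adjusted p = 0.472), and the difference was -8.18 ± 0.25 (adjusted p = 5.62e-17).

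Lsp2, a larval serum protein gene of the fat body, was at or near 0 in the male LPHC libraries. In males, Lsp2 read 13987, 16467, 12311, 15143 and 13282 in the HPLC libraries and 1.46, 0, 0, 1.51 and 2.42 in the LPHC libraries. In females, Lsp2 read 39077, 35664, 28307, 29170 and 32371 on HPLC and 30016, 23692, 26849, 30968 and 34285 on LPHC. The female groups overlapped and did not pass the test (change -0.18, adjusted p = 0.599). CNMa, a neuropeptide, rose by 3.08 in males, and its female change was -0.09 (adjusted p = 0.712). Others with a higher male change were phu (5.83 in males and -1.17 in females), the kainate-type glutamate receptor gene Grik (1.01 in males and -0.52 in females), the odorant receptor gene Or63a (1.03 in males and -0.42 in females), CG43050 (1.83 in males and -1.87 in females) and CG4822 (0.10 in males and -1.64 in females). Those with a lower male change were CG10621 (-5.39 in males and 0.68 in females), CG1979 (-6.96 in males and 1.19 in females), CG32444 (-5.79 in males and 0.06 in females), CG7675 (-1.62 in males and 1.65 in females) and CG16898. All these differences had adjusted p of 4.72e-10 or less, but CG4822 did not pass the test in males, nor did CG32444 in females.

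The CG16898 values were 1675, 1774, 2126, 2578 and 1746 in male HPLC libraries and 54.0, 66.9, 62.8, 92.7 and 50.8 in male LPHC libraries. The female CG16898 values were 690, 772, 764, 543 and 764 on HPLC and 14320, 12202, 11169, 12067 and 11828 on LPHC. CG16898, for which no role is given here, did not overlap between diets in either sex and changed by -4.91 ± 0.14 in males and 4.13 ± 0.14 in females, a difference of -9.04 ± 0.20 (adjusted p = 8.55e-20).

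**Figure D2:**
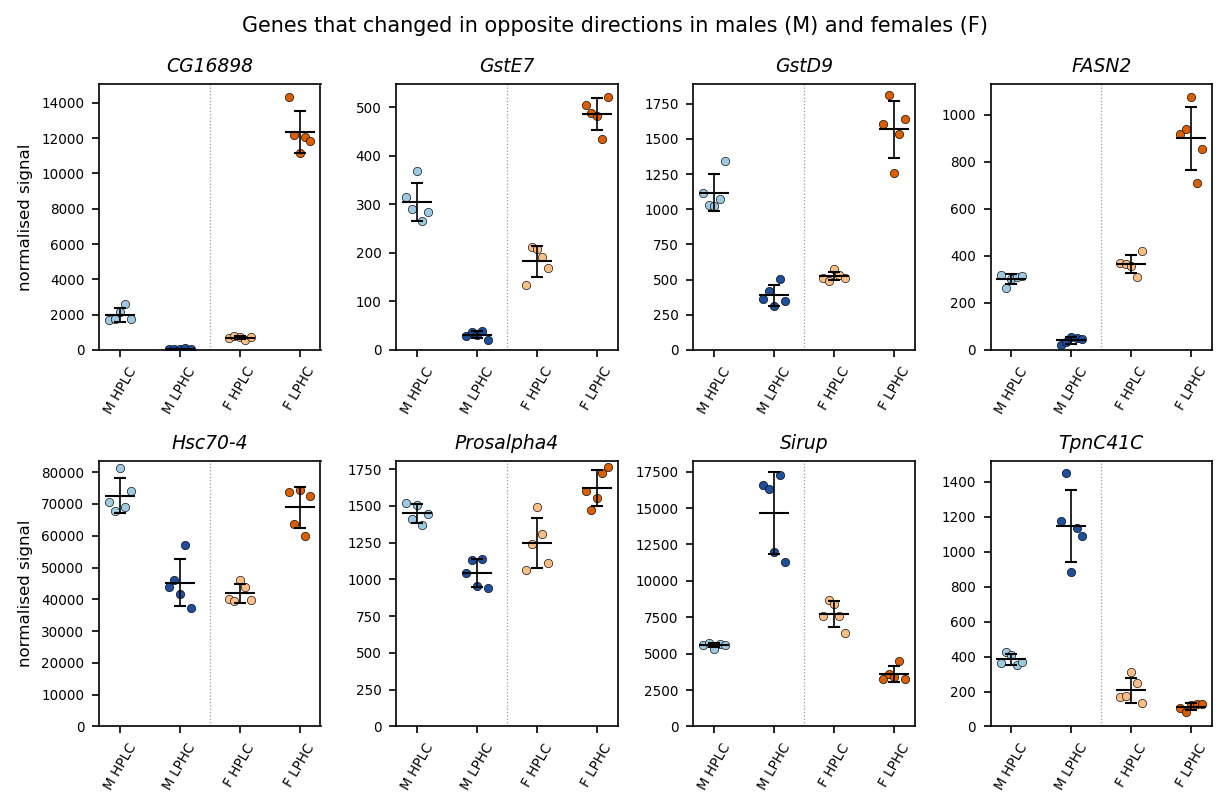
Normalised signal (vertical axis) of 8 genes called in opposite directions, by sex and diet; points are libraries (5 a group), horizontal bars means and error bars SD, and the dotted line separates the male from the female table, which were scaled separately. CG16898, GstE7, GstD9, FASN2, Hsc70-4 and Prosalpha4 fell in males and rose in females on LPHC; Sirup and TpnC41C rose in males and fell in females.

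Many glutathione transferase and antioxidant genes fell in males and rose in females. Of 33 glutathione transferases tested, enzymes that couple glutathione to electrophiles, the difference was lower in males for 25 and higher for 3. In males 27 fell and 1 rose; in females 17 rose and 6 fell. The list's median change was -0.92 in males and 0.20 in females, and its median difference of -1.07 compares with -0.02 over all genes. 16 members were opposite with the male lower, of which 15 were so on all 3 scales.

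Male libraries held GstE7 at 315, 290, 370, 266 and 285 on HPLC and at 29.2, 36.3, 30.9, 39.9 and 20.2 on LPHC. Female libraries held GstE7 at 135, 212, 209, 191 and 168 on HPLC and at 506, 489, 483, 434 and 522 on LPHC. GstE7 did not overlap between diets in either sex, with changes of -3.27 ± 0.15 in males and 1.42 ± 0.15 in females and a difference of -4.69 ± 0.21 (adjusted p = 1.95e-14). In males, GstD9 read 1119, 1031, 1023, 1072 and 1344 in the HPLC libraries and 360, 418, 316, 504 and 346 in the LPHC libraries. In females, GstD9 read 514, 492, 574, 534 and 512 on HPLC and 1607, 1812, 1256, 1534 and 1641 on LPHC. The GstD9 groups were also separate in both sexes, with changes of -1.53 ± 0.11 in males and 1.57 ± 0.11 in females and a difference of -3.10 ± 0.15 (adjusted p = 1.32e-13). GstE6 changed by -2.37 ± 0.12 in males and 1.27 ± 0.12 in females.

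The 18 antioxidant and Nrf2 pathway genes followed the same pattern, with 15 differences lower and 2 higher in males and medians of -0.57 in males and 0.14 in females. In males 15 fell and none rose, and in females 8 rose and 1 fell. 8 members were opposite, but 3 on all 3 scales. Cat, the catalase that breaks down hydrogen peroxide, changed by -1.59 ± 0.10 in males and 0.40 ± 0.10 in females and was opposite on every scale. The Gclc values were 4885, 4420, 4696, 4518 and 4662 in male HPLC libraries and 3381, 4056, 3595, 3901 and 3605 in male LPHC libraries. The female Gclc values were 2790, 2836, 2773, 2286 and 2899 on HPLC and 5522, 5960, 5062, 4728 and 5447 on LPHC. Gclc, the catalytic subunit of the enzyme that limits glutathione synthesis, changed by -0.32 ± 0.07 in males and 0.98 ± 0.07 in females, with a difference of -1.30 ± 0.10 (adjusted p = 2.81e-10). With the same total per library its male change was -0.0745 (adjusted p = 0.335), so the male fall was lost on that scale while the difference was kept. ref(2)P, the fly p62 autophagy receptor, changed by -0.19 in males and 0.90 in females, and its male change turned to 0.06 (adjusted p = 0.324) with the same total.

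Proteasome subunits, which form the complex that degrades ubiquitin-tagged proteins, fell in 29 of 36 members in males, and 9 rose and 1 fell in females. Their median change was -0.39 in males and 0.12 in females, and the difference was lower for 29 and higher for 1. 9 members were opposite, 7 of them on all 3 scales. Male libraries held Prosalpha4 at 1523, 1409, 1505, 1369 and 1448 on HPLC and at 1045, 1134, 952, 1141 and 944 on LPHC. Female libraries held Prosalpha4 at 1066, 1243, 1495, 1309 and 1111 on HPLC and at 1601, 1469, 1554, 1724 and 1764 on LPHC. Prosalpha4, a subunit of the 20S core, was separate between diets in males, and in females 1 HPLC library reached into the LPHC range. Its changes were -0.48 ± 0.08 in males and 0.39 ± 0.08 in females, a difference of -0.87 ± 0.12 (adjusted p = 1.47e-06).

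Chaperones differed mainly through females. Of 27 heat shock and chaperone genes, 22 rose and none fell in females (median change 0.88), whereas 4 rose and 6 fell in males (median -0.12). As deposited 6 members were opposite with the male lower, but 3 on all 3 scales, so the male falls depended in part on the scale. The difference was lower in males for 21 members and higher for 2, on each of the 3 scales for the 21. In males, Hsc70-4 read 70612, 67687, 81293, 69157 and 74190 in the HPLC libraries and 43931, 46104, 41524, 57064 and 37305 in the LPHC libraries. In females, Hsc70-4 read 40026, 39515, 46157, 43789 and 39680 on HPLC and 73816, 63726, 74307, 59992 and 72546 on LPHC. Hsc70-4, the constitutive cytosolic Hsp70, did not overlap between diets in either sex and changed by -0.70 ± 0.10 in males and 0.72 ± 0.10 in females, a difference of -1.41 ± 0.14 (adjusted p = 1.49e-08). Gp93, the Hsp90 of the endoplasmic reticulum, changed by -1.16 ± 0.10 in males and 0.48 ± 0.10 in females. Hsp68, an inducible Hsp70, rose in females by 2.81 and in males changed by -0.38 (adjusted p = 0.159). Hsp60A, the mitochondrial chaperonin, rose in females by 0.88. Its male change of -0.01 did not pass the test and was 0.24 with the same total. On both other scales Hsp60A was called higher in both sexes, with the larger rise in females. The Hsp70A and Hsp70B genes are near-identical copies whose reads may have been split between them.

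Ribosome biogenesis factors also moved mainly in females. 35 of 45 rose and 1 fell there (median 0.48), against 3 that rose and 7 that fell in males (median 0.03), and 31 differences were lower in males and none higher. Non1, a nucleolar GTPase needed for large ribosomal subunits, changed by -0.49 ± 0.10 in males and 0.49 ± 0.10 in females. Here the scale set the male direction of the list: with the same total its male median was 0.28 and its female median 0.64, and 1 member was opposite on all 3 scales in place of 7. Aminoacyl-tRNA synthetases, which charge tRNAs, had 14 differences lower and 5 higher among 33 members, or 11 lower and 10 higher with the same total. Their called share of 57.6% was near the 52.3% of all genes. As deposited 6 members were opposite with the male lower, but only SerRS was so on all 3 scales. SerRS changed by -0.41 ± 0.08 in males and 0.63 ± 0.08 in females.

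Cytosolic ribosomal protein genes fell in 80 of 83 members in males (median -0.57) and in 18 in females (median -0.15), with none higher in either sex (1 male and 5 female members were higher with the same total). The difference was lower in males for 61 and higher for 1. RpS13, a small subunit protein, changed by -1.06 in males and -0.14 in females (adjusted p = 0.111), a difference of -0.92 ± 0.10 (adjusted p = 3.48e-08). With the same total the female median was 0.02 and the male one -0.32. Mitochondrial ribosomal proteins had few differences, 14 higher and 3 lower among 71 members (23.9% called against 52.3% of all genes).

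**Figure D3:**
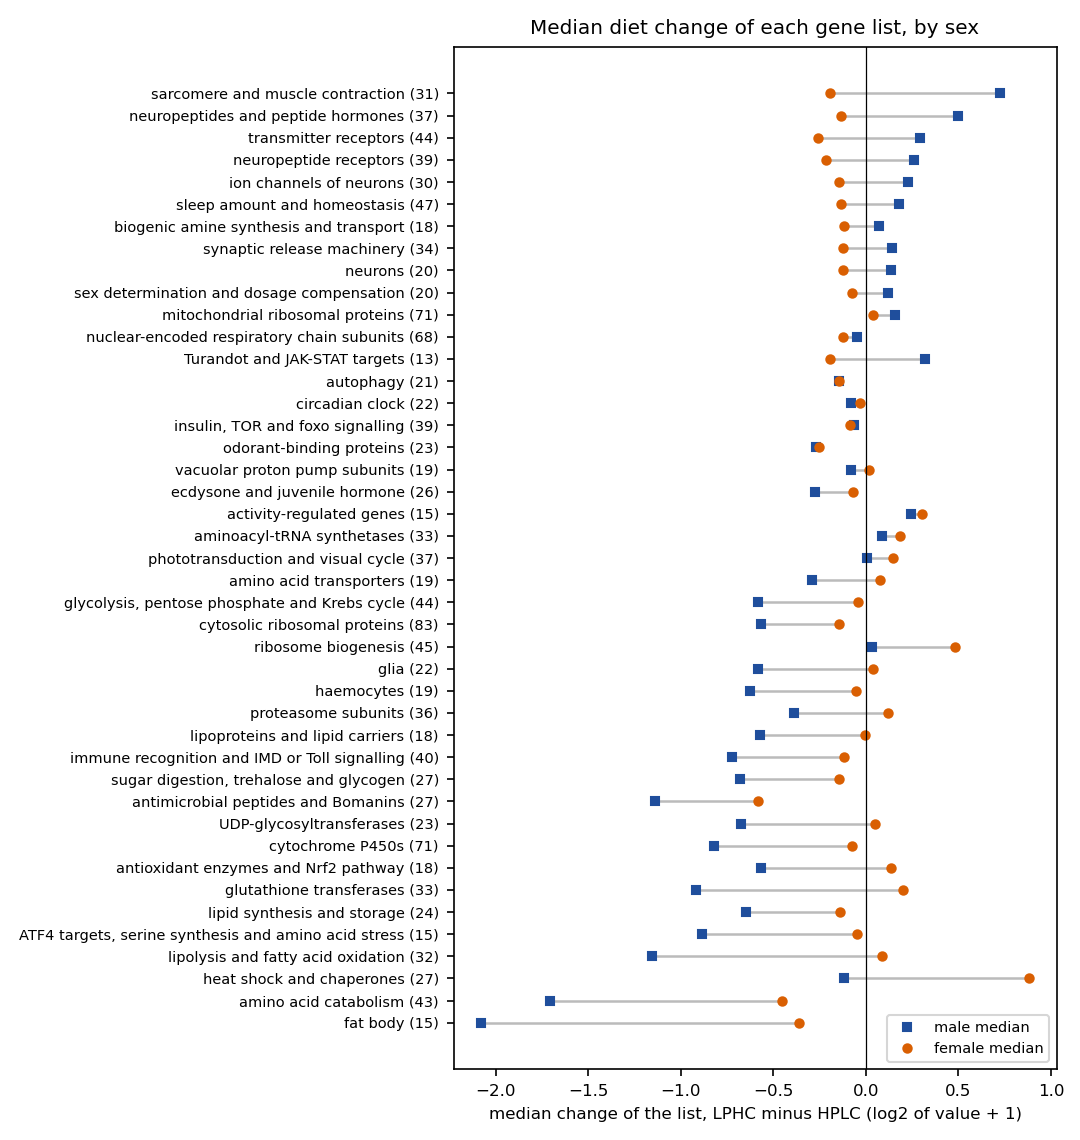
Median change of each gene list on LPHC against HPLC (horizontal axis, log2 of value + 1) in males (squares) and females (circles), with the number of tested genes in brackets, for lists with at least 10; lists are ordered by their median difference. Fat body and amino acid catabolism lie furthest to the left in males, and muscle, neuropeptides and transmitter receptors lie right of 0 in males and left of 0 in females.

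Fatty acid breakdown fell in males and moved little in females. Of 32 genes for lipolysis and fatty acid oxidation, 28 fell and 1 rose in males (median -1.16), and 9 rose and 5 fell in females (median 0.09). Differences were lower for 28 and higher for none, and 7 of 8 opposite members were so on all 3 scales. Lip2, a lipase, fell by 4.20 in males, and its female change was 0.35 (adjusted p = 0.0685). With the same total the female change of Lip2 was 0.52 and Lip2 was called opposite. Lipid synthesis and storage genes had 19 of 24 differences lower and 2 higher, with medians of -0.65 in males and -0.14 in females. In females 7 of them rose and 9 fell. Opposite with the male lower were 6 members, 3 of them on all 3 scales, and 7 fell in both sexes with the difference called.

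The FASN2 values were 320, 264, 302, 313 and 314 in male HPLC libraries and 20.4, 32.1, 56.2, 52.0 and 46.8 in male LPHC libraries. The female FASN2 values were 370, 364, 358, 312 and 422 on HPLC and 918, 942, 1077, 709 and 856 on LPHC. FASN2, a fatty acid synthase, did not overlap in either sex and changed by -2.92 ± 0.18 in males and 1.29 ± 0.18 in females, a difference of -4.21 ± 0.26 (adjusted p = 6.75e-12). Lsd-1, the perilipin that coats lipid droplets and controls lipolysis, changed by -1.44 ± 0.12 in males and 0.65 ± 0.12 in females. AcCoAS, which makes acetyl-CoA from acetate, fell in both sexes (-2.98 in males and -0.33 in females), but its female fall did not pass with the same total (adjusted p = 0.0555).

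Amino acid breakdown was the function in which same-direction changes of unequal size were most common among the lists shown. Of 43 genes, 36 fell and 3 rose in males (median -1.71), and 28 fell and 3 rose in females (median -0.45). The difference was lower in males for 33 and higher for 4. 22 members fell in both sexes with the difference called, and the male fall was the larger in all 22; 17 were in that class on all 3 scales. Male libraries held Shmt at 30525, 27080, 31285, 29355 and 33868 on HPLC and at 1417, 1337, 1017, 1554 and 1025 on LPHC. Female libraries held Shmt at 45487, 43136, 57506, 45574 and 45542 on HPLC and at 25344, 20280, 24914, 21770 and 27191 on LPHC. Shmt, serine hydroxymethyltransferase, which links serine and glycine to folate metabolism, was separate between diets in both sexes. It changed by -4.60 ± 0.11 in males and -0.99 ± 0.11 in females, a difference of -3.61 ± 0.16 (adjusted p = 1.86e-14).

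In males, Oat read 2462, 2217, 2605, 2216 and 2561 in the HPLC libraries and 191, 234, 160, 215 and 159 in the LPHC libraries. In females, Oat read 4215, 4084, 5978, 3595 and 4462 on HPLC and 2657, 2690, 3303, 2935 and 3560 on LPHC. Oat, ornithine aminotransferase, was likewise separate between diets in both sexes and changed by -3.66 ± 0.12 in males and -0.55 ± 0.12 in females. Argl, argininosuccinate lyase, changed by -4.30 in males and -0.50 in females. CG11899, annotated as a phosphoserine aminotransferase of serine synthesis, fell by 3.08 in males, and its female change was 0.07 (adjusted p = 0.604). With the same total the female change of CG11899 was 0.23 and CG11899 was called opposite. In the list of ATF4 targets, serine synthesis and amino acid stress genes, 10 of 15 differences were lower and 2 higher. In females 7 members fell and 4 rose, and 2 were opposite with the male lower. trbl, a pseudokinase related to mammalian tribbles, changed in opposite directions, -1.30 in males and 0.77 in females.

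Sugar metabolism fell more in males too. Of 44 genes of glycolysis, the pentose phosphate pathway and the Krebs cycle, 30 fell and 2 rose in males (median -0.58), and 12 fell and 5 rose in females (median -0.04), with 29 differences lower and 1 higher. With the same total the female counts were 8 lower and 18 higher, so the female direction of this list depended on the scale. fbp, the gluconeogenic fructose-1,6-bisphosphatase, changed by -2.74 in males and 0.11 in females, and the female value did not pass the test (adjusted p = 0.323). With the same total the female change of fbp was 0.28 and fbp was called opposite, with the male lower. Idh, an NADP-dependent isocitrate dehydrogenase, changed by -2.28 ± 0.09 in males and 0.49 ± 0.09 in females and was opposite on every scale. Sugar digestion, trehalose and glycogen genes had 17 of 27 differences lower and 2 higher. Sodh-1, a sorbitol dehydrogenase, fell in both sexes, -4.88 in males and -1.19 in females, with a difference of -3.68 ± 0.18 (adjusted p = 8.80e-14).

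Cytochrome P450s, oxidases of hormones and foreign compounds, fell in 51 of 71 members in males and in 24 in females, with medians of -0.82 and -0.08; 5 rose in males and 13 in females. Lower differences numbered 43 (60.6%, against 29.6% of all genes) and higher ones 7. In both sexes 15 members fell with the difference called and 7 with no called difference (11 and 5 on all 3 scales). The male fall was the larger in 13 of those 15. Opposite with the male lower were 8 members, 5 of them on all 3 scales. Cyp9b2 moved in opposite directions (-2.35 in males and 0.38 in females), while Cyp309a2 fell in males by 4.22 and in females changed by -0.15 (adjusted p = 0.251). UDP-glycosyltransferases had 16 of 23 differences lower and 3 higher. Ugt37B1 fell by 7.48 in males to between 1.46 and 11.3 per library. Its female change of -0.78 was near the threshold (adjusted p = 0.0446) and was lost when any of 12 libraries was left out, 8 of them female and 4 male. Fat body genes fell in 11 of 15 members in males (median -2.08) and had mixed signs in females (5 higher and 4 lower, median -0.36); fat body also makes the enzymes of lipid, amino acid, sugar and P450 metabolism, and the list's share of the signal, given above, fell beside them in males, whereas without the yolk protein genes the female groups overlapped.

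Neuronal signalling genes went the other way, higher in males relative to females. Of 44 transmitter receptors, 33 rose and 1 fell in males (median 0.29), and 24 fell and 1 rose in females (median -0.26). The difference was higher for 37 and lower for 1, and it was higher for 40 with equal totals and for 41 with equal upper quartiles. Beside this the share of signal from neuron genes rose from 1.10% to 1.41% in males (exact permutation test, adjusted p = 0.0159) and was 0.552% and 0.591% in females (adjusted p = 0.456, exact permutation test); its part in these differences was not tested. 19 members were opposite as deposited and 20 with the same upper quartile, but 3 with the same total, where 4 fell in females, so the female fall depended on the scale.

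The GluRIA values were 1328, 1385, 1210, 1352 and 1285 in male HPLC libraries and 1925, 1583, 1894, 1751 and 1895 in male LPHC libraries. The female GluRIA values were 800, 732, 634, 714 and 657 on HPLC and 589, 599, 537, 581 and 528 on LPHC. GluRIA, an AMPA-type glutamate receptor, changed by 0.46 ± 0.07 in males and -0.32 ± 0.07 in females, a difference of 0.78 ± 0.10 (adjusted p = 7.03e-07). The GluRIA groups did not overlap in either sex, but with the same total its female change was -0.153 (adjusted p = 0.137). The kainate-type receptor gene clumsy changed by 1.12 ± 0.14 in males and -0.54 ± 0.14 in females and stayed opposite on all 3 scales. The nicotinic receptor subunit nAChRalpha2 changed by 0.54 in males and -0.27 in females, and its female change was -0.104 (adjusted p = 0.342) with the same total. Neuronal ion channels had 17 of 30 differences higher and 1 lower (60% called against 52.3% of all genes, and 56.7% higher against 22.7%).

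The synaptic release machinery had 19 of 34 differences higher and 1 lower, with medians of 0.14 in males and -0.12 in females. Its called share of 58.8% was near the 52.3% of all genes, with 55.9% higher against 22.7%. With the same total the medians were 0.39 and 0.04 and none was opposite. VAChT, the vesicular acetylcholine transporter, changed by 0.24 in males and -0.31 in females, and its female change lost the call with the same total (adjusted p = 0.184). General neuron markers moved the same way in fewer members, with 8 of 20 differences higher and 1 lower. Called differences made up 45% of them, below the 52.3% of all genes, and higher ones 40% against 22.7%. Glial markers moved the other way, with 13 of 22 differences lower and none higher. In males 19 fell and 1 rose, while in females 7 rose and 5 fell (median 0.04). Only 5 members were opposite with the male lower. Eaat1, the glial glutamate transporter, changed by -1.24 ± 0.08 in males and 0.34 ± 0.08 in females, and Gs2, glutamine synthetase, by -0.57 ± 0.06 in males and 0.26 ± 0.06 in females. NAAT1, a transporter of nutrient amino acids, changed by -0.61 ± 0.08 in males and 0.77 ± 0.08 in females.

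Most neuropeptide genes rose in males, and those of females split. Of 37 peptide genes, 25 rose and 5 fell in males (median 0.50), and 5 rose and 13 fell in females (median -0.13); the difference was higher for 24 and lower for 3. With the same total the female counts were 7 higher and 5 lower. Male libraries held Proc at 1339, 1325, 1305, 1426 and 1412 on HPLC and at 2732, 2634, 2413, 2172 and 2774 on LPHC. Female libraries held Proc at 1063, 860, 850, 814 and 926 on HPLC and at 716, 677, 585, 738 and 648 on LPHC. Proc, which encodes the muscle-active peptide proctolin, did not overlap in either sex and changed by 0.90 ± 0.08 in males and -0.42 ± 0.08 in females, a difference of 1.32 ± 0.11 (adjusted p = 1.33e-09). Dh31, a diuretic hormone and wake-promoting peptide, changed by 0.77 in males and -0.25 in females, but its female fall was lost on both other scales (adjusted p = 0.514 and 0.0618) and when any of 4 female libraries was left out. sNPF, a feeding peptide, rose in males by 0.50, and its female change was -0.13 (adjusted p = 0.0881). Neuropeptide receptors had 20 of 39 differences higher and 2 lower (56.4% called against 52.3% of all genes, and 51.3% higher against 22.7%). PK1-R, a pyrokinin receptor and 1 of the 2, moved the other way, with -1.84 in males and 1.54 in females.

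Genes of insulin, TOR and foxo signalling did not move as a group. Of 39 tested, 9 differences were higher and 12 lower, 18 were not called, and the median difference was -0.04. Their called share of 53.8% was near the 52.3% of all genes. In males, CCHa2 read 4673, 4989, 3090, 4965 and 3422 in the HPLC libraries and 536, 522, 467, 552 and 666 in the LPHC libraries. In females, CCHa2 read 9275, 8145, 7171, 6540 and 8269 on HPLC and 10733, 11330, 10158, 12811 and 12046 on LPHC. CCHa2, a peptide hormone that the fat body and gut release to act on the insulin-producing neurons, did not overlap in either sex and changed by -2.93 ± 0.13 in males and 0.54 ± 0.13 in females, a difference of -3.47 ± 0.18 (adjusted p = 2.22e-13).

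The insulin-like peptide gene Ilp3 rose in males and did not pass the test in females. The Ilp3 values were 155, 152, 95.4, 152 and 119 in male HPLC libraries and 743, 510, 457, 445 and 538 in male LPHC libraries. The female Ilp3 values were 457, 481, 424, 320 and 417 on HPLC and 373, 384, 401, 472 and 410 on LPHC. The female Ilp3 groups overlapped (change -0.03, adjusted p = 0.878), and the difference was 2.02 ± 0.20 (adjusted p = 1.81e-08). The other insulin-like peptides named next, and Sesn, were chosen after their values were seen. Ilp5 fell in both sexes with a difference of -1.11 ± 0.20 (adjusted p = 5.51e-05), the changes being -1.78 in males and -0.66 in females. Ilp6, made by the fat body, fell in both sexes with no called difference, -0.67 in males and -0.84 in females (adjusted p of the difference = 0.468).

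Regulators of growth and energy signalling differed in both directions. ImpL2, a secreted protein that binds insulin-like peptides, rose in females by 1.18, and in males it changed by -0.04 (adjusted p = 0.799), or by 0.21 with the same total. upd2, the leptin-like cytokine of the fat body, rose in females, where it ranged between 7.91 and 19.1 on HPLC and between 42.9 and 144 on LPHC. Its male change was 0.53 (adjusted p = 0.164). With the same total the male change of upd2 was 0.76 and was called. Thor, the translation inhibitor 4E-BP, rose in males by 0.81; its female change of -0.27 (adjusted p = 0.0293) was lost on both other scales and without any of 6 female libraries. Sesn, sestrin, an inhibitor of TOR, changed by 0.53 in males and -0.44 in females, the female fall not passing with the same total (adjusted p = 0.111).

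Muscle genes rose in males and fell in part in females. Of 31 sarcomere and contraction genes, 26 rose and 2 fell in males (median 0.72), and 4 rose and 13 fell in females (median -0.19); the difference was higher for 22 and lower for 1. 12 members were opposite with the male higher, 7 of them on all 3 scales. Male libraries held TpnC41C at 366, 425, 411, 354 and 368 on HPLC and at 1178, 1450, 884, 1138 and 1087 on LPHC. Female libraries held TpnC41C at 169, 175, 311, 252 and 135 on HPLC and at 108, 85.8, 120, 129 and 126 on LPHC. TpnC41C, a troponin C of muscle, was separate between diets in both sexes and changed by 1.56 ± 0.17 in males and -0.82 ± 0.17 in females, a difference of 2.37 ± 0.24 (adjusted p = 2.47e-08). Mlc1, a myosin light chain, changed by 1.26 ± 0.12 in males and -0.64 ± 0.12 in females. Act87E, a muscle actin, rose in males by 1.36, and its female change was -0.08 (adjusted p = 0.51).

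**Figure D4:**
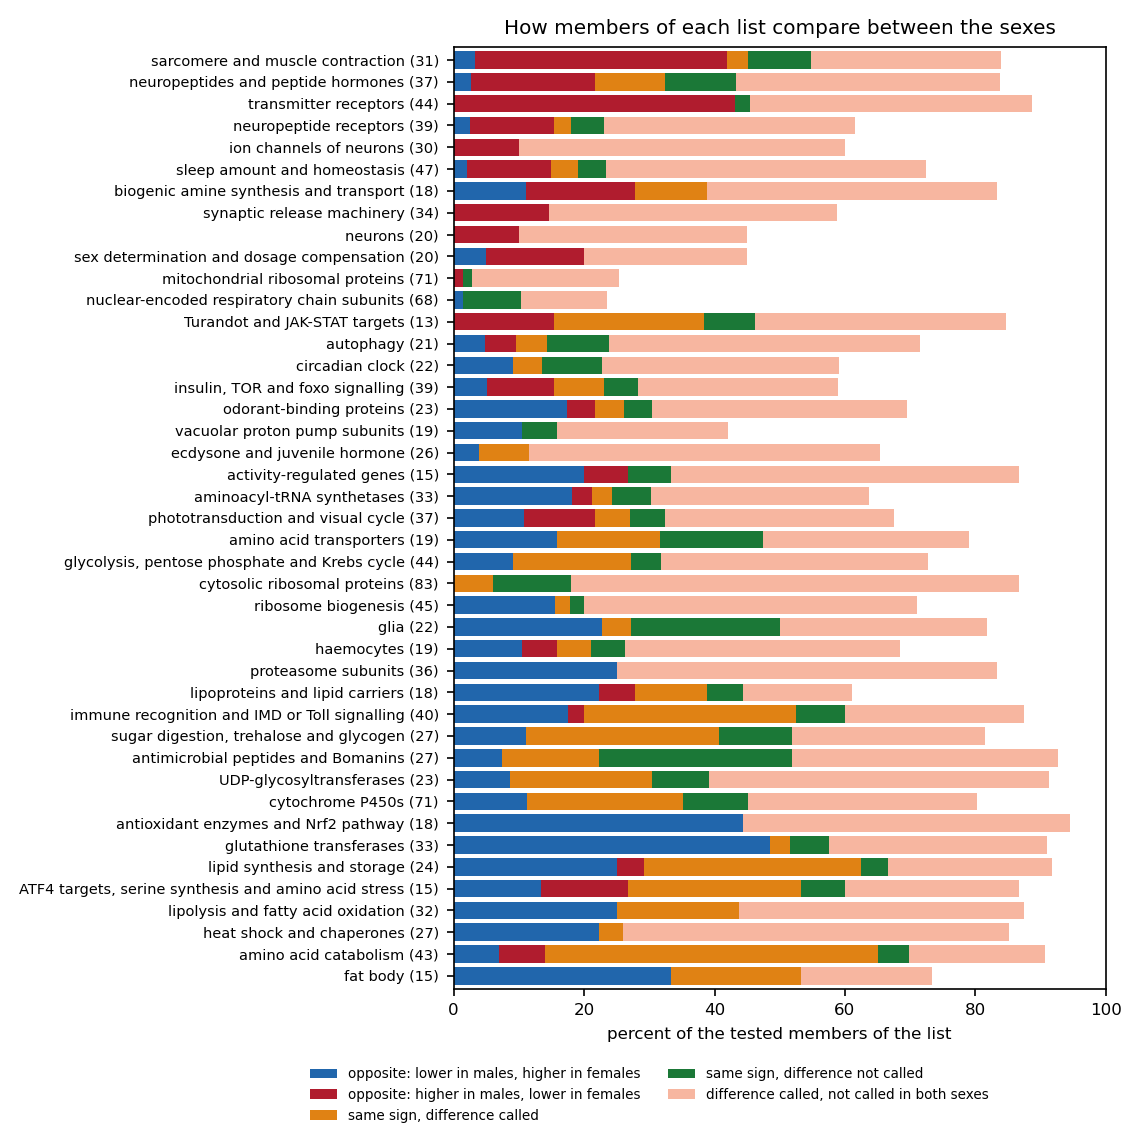
Percent of the tested members of each list (horizontal axis) in each class of the contrast, for lists with at least 10 tested genes (numbers in brackets), in the order of their median differences. Blue marks members opposite with the male lower (16 of 33 glutathione transferases), red those opposite with the male higher (19 of 44 transmitter receptors), orange same sign with the difference called (22 of 43 for amino acid catabolism), green same sign with no called difference, and pale red a called difference in genes not called in both sexes; members with no called difference and no call in both sexes are not drawn.

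Immune genes fell in males, and females split. Of 40 genes for recognition and for the IMD and Toll pathways, which switch on antimicrobial peptides, 32 fell and 1 rose in males (median -0.72), and 18 fell and 11 rose in females (median -0.12). Differences were lower for 30 and higher for 2. 13 members fell in both sexes with the difference called, 9 of them on all 3 scales, and the male fall was the larger in all 13. Another 3 fell in both sexes with no called difference. Opposite with the male lower were 7 members, 4 of them on all 3 scales, and 1 was opposite with the male higher. Rel, the NF-kB factor of the IMD pathway, changed by -1.06 ± 0.07 in males and 0.35 ± 0.07 in females, and spz, the ligand of the Toll receptor, by -0.71 ± 0.08 in males and 0.89 ± 0.08 in females; both were opposite on all 3 scales.

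Of 27 antimicrobial peptides and Bomanins, 24 fell and none rose in males (median -1.14), and 14 fell and 2 rose in females (median -0.58). The difference was lower for 15 and higher for 2, and 8 members were shared lower, 5 of them on all 3 scales. Another 4 fell in both sexes with the difference called. Opposite with the male lower were 2 members, Listericin and Drs, and only Listericin was so on all 3 scales. In males, Listericin read 1910, 2165, 2079, 2001 and 2023 in the HPLC libraries and 629, 736, 928, 424 and 372 in the LPHC libraries. In females, Listericin read 1362, 1351, 1479, 1152 and 1027 on HPLC and 5223, 4453, 4776, 3936 and 6504 on LPHC. Listericin was separate between diets in both sexes and changed by -1.80 ± 0.18 in males and 1.96 ± 0.18 in females, a difference of -3.76 ± 0.25 (adjusted p = 3.04e-11). Drs, the antifungal drosomycin, rose in females by 2.22; its male change of -0.73 passed as deposited (adjusted p = 0.0171) but not on the other 2 scales, nor without male HPLC replicate 4 or 5. AttA, attacin A, fell in males by 3.92, and its female change was -0.81 (adjusted p = 0.0665); AttA and AttB are close copies. Def, defensin, chosen after its values were seen, fell in both sexes with no called difference, -1.62 in males and -1.41 in females (adjusted p of the difference = 0.744).

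TotA and TotC, secreted Turandot stress proteins under JAK-STAT control, rose in males and fell in females. The TotA values were 3217, 2674, 2790, 1671 and 3990 in male HPLC libraries and 8695, 9986, 1693, 36319 and 6758 in male LPHC libraries. The female TotA values were 54397, 42432, 23207, 26171 and 46157 on HPLC and 10316, 11452, 10844, 11929 and 15040 on LPHC. The female TotA groups were separate, while the male LPHC range ran from within the HPLC range up to replicate 4, which stood far above the other 4. TotA changed by 1.56 ± 0.47 in males and -1.63 ± 0.47 in females, and TotC by 2.41 ± 0.53 in males and -1.68 ± 0.53 in females, with TotC highest in the same male library. Both male rises kept their call without male LPHC replicate 4. Of 13 Turandot and JAK-STAT genes, 5 differences were higher and 5 lower.

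Among the genes opposite with the male lower, several had large changes in both sexes, most of them with no role given here. They included CG31296 (-3.30 in males and 4.71 in females), CG34227 (-3.96 in males and 3.05 in females), CG9701 (-2.74 in males and 3.76 in females), CG34456 (-4.39 in males and 2.66 in females), the mucin gene Muc68Ca (-3.81 in males and 2.52 in females), vrs (-2.32 in males and 2.35 in females) and CG10357 (-2.26 in males and 3.63 in females). In the male LPHC and female HPLC libraries, CG31296 reached at most 16.9, CG10357 at most 16.7 and CG34456 at most 5.28, and CG10357 overlapped between the male diets. Their differences between the sexes were smaller with 8 added to each value in place of 1. They went from -8.00 to -5.61 for CG31296, from -5.89 to -3.14 for CG10357 and from -7.05 to -3.97 for CG34456. Among those with the male higher were CG33093 (3.60 in males and -2.55 in females), CG40298 (1.65 in males and -1.08 in females) and nw (1.82 in males and -1.05 in females).

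Shared changes, which leave out the unequal ones, were fewer than opposite ones as deposited (501 against 1259). With the same total they were more numerous (1495 against 890). Most of the shared genes named here were low in signal. Male libraries held Root at 105, 116, 80.1, 112 and 72.7 on HPLC and at 503, 466, 677, 889 and 735 on LPHC. Female libraries held Root at 145, 164, 168, 159 and 196 on HPLC and at 794, 1159, 1010, 991 and 997 on LPHC. Root, rootletin, a structural protein of the ciliary rootlets of sensory neurons, rose in every LPHC library of both sexes with no overlap. Its changes were 2.72 ± 0.16 in males and 2.56 ± 0.16 in females, and the difference of 0.16 ± 0.22 was not called (adjusted p = 0.563). Pgant4, a glycosyltransferase that starts O-linked sugar chains, rose by 0.93 in males and 1.19 in females. ppk15, a channel of the pickpocket family, rose by 1.48 and 1.15, ND-49L, a relative of a complex I subunit, by 1.23 and 1.62, and CG13847 by 1.40 and 2.06. CG42816 rose by 1.09 and 1.55, but its male call was lost under 14 alternatives, edgeR (adjusted p = 0.104) and DESeq2 (0.0787) among them.

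In males, CG34215 read 197, 171, 165, 178 and 169 in the HPLC libraries and 43.8, 46.0, 45.2, 61.8 and 56.5 in the LPHC libraries. In females, CG34215 read 380, 317, 533, 453 and 465 on HPLC and 101, 74.6, 109, 129 and 119 on LPHC. CG34215 fell with no overlap in either sex, with changes of -1.79 in males and -2.0 in females, and the difference was not called (adjusted p = 0.392). The other shared genes that fell were CG10073 (-2.53 in males and -2.63 in females), CG14191 (-2.18 in males and -2.05 in females), CG30002 (-2.45 in males and -1.81 in females), CG7763 (-1.80 in males and -2.28 in females) and CG30098 (-1.78 in males and -2.16 in females). For CG30002 the difference missed the threshold narrowly (adjusted p = 0.0515) and was called without any of 4 libraries in turn (male LPHC replicate 2 or 4, female HPLC replicate 3 or female LPHC replicate 1). CG10073 and CG7763 had a called difference with a pseudocount of 8 (adjusted p = 0.00561 and 0.0228), and CG7763 also without male LPHC replicate 3 (adjusted p = 0.0372).

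**Figure D5:**
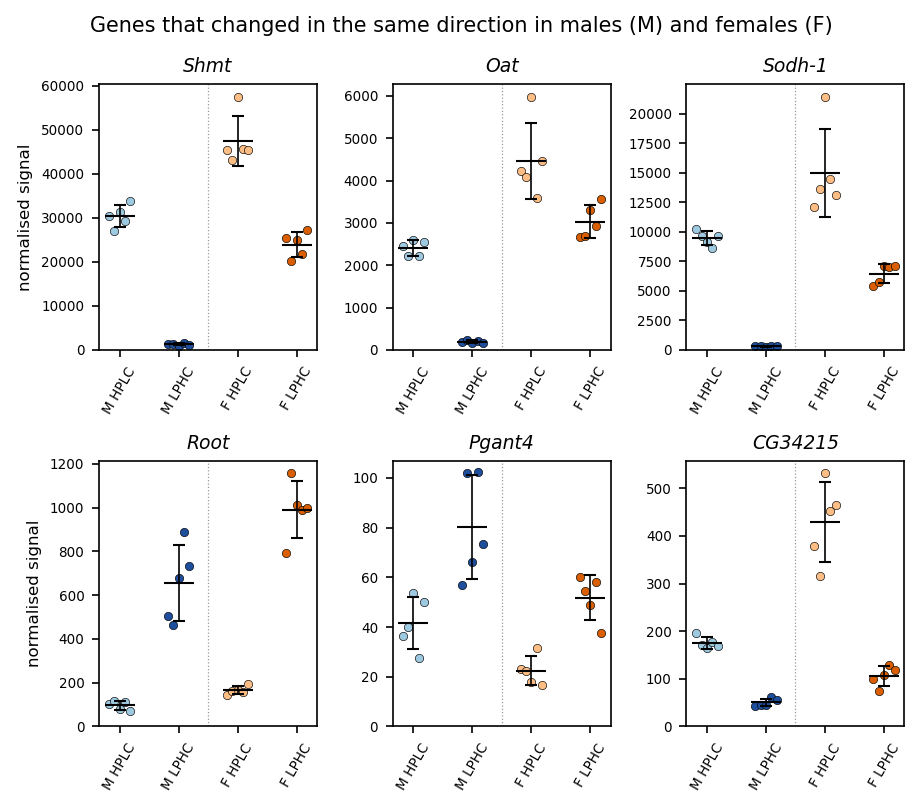
Normalised signal (vertical axis) of 6 genes called in the same direction in both sexes, by sex and diet; points are libraries (5 a group), horizontal bars means and error bars SD, and the male and female tables were scaled separately. Shmt, Oat and Sodh-1 fell further in males than in females, whereas for Root, Pgant4 and CG34215 the difference between the sexes was not called.

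Genes of sleep and biogenic amines held called differences in 68.1% and 83.3% of their members, and clock genes in 50%, against 52.3% of all genes. Of 47 genes tied to sleep amount and homeostasis, 23 differences were higher and 9 lower, with medians of 0.18 in males and -0.14 in females; with the same total the female median was 0.03. The ple values were 2182, 2119, 1927, 2170 and 1959 in male HPLC libraries and 1856, 1425, 1664, 1287 and 1595 in male LPHC libraries. The female ple values were 2227, 1988, 2025, 1943 and 1977 on HPLC and 4131, 3920, 4084, 2856 and 4349 on LPHC. ple, tyrosine hydroxylase, the first step of dopamine synthesis, did not overlap in either sex and changed by -0.41 ± 0.10 in males and 0.92 ± 0.10 in females, a difference of -1.33 ± 0.14 (adjusted p = 4.08e-08). With the same total its male change was -0.163 (adjusted p = 0.162).

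Ddc, dopa decarboxylase, the next enzyme of the same pathway, moved the other way. Male libraries held Ddc at 7079, 7820, 7420, 7818 and 8096 on HPLC and at 12790, 10876, 11171, 11343 and 12213 on LPHC. Female libraries held Ddc at 4749, 4300, 4357, 5053 and 4357 on HPLC and at 3706, 3277, 3432, 3547 and 3329 on LPHC. The Ddc groups were separate in both sexes, with changes of 0.61 ± 0.06 in males and -0.40 ± 0.06 in females and a difference of 1.01 ± 0.09 (adjusted p = 1.63e-09). Of 22 clock genes, 5 differences were higher, 6 lower and 11 not called, and the median difference was -0.01. cry, the blue-light receptor of the clock, fell in males by 1.01 and changed in females by -0.16 (adjusted p = 0.104). to (takeout), a clock-controlled feeding gene that the fat body also makes, changed by -0.81 ± 0.18 in males and 0.95 ± 0.18 in females. vri, a transcriptional repressor of the clock, rose by 0.31 in males and 0.99 in females, but the male rise was lost without any of 4 male libraries (HPLC replicate 3 or 4, LPHC replicate 1 or 4).

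Respiratory chain and proton pump genes held fewer called differences than the 52.3% of all genes. Of 68 nuclear-encoded respiratory chain subunits, 6 differences were higher and 4 lower (14.7% called), although 17 were higher and 3 lower with the same total. Among 19 subunits of the vacuolar proton pump 2 were higher and 5 lower (36.8%). Among 21 autophagy genes 5 were higher and 8 lower (61.9%). Of 37 phototransduction genes 9 were higher and 14 lower (62.2%), against 10 and 9 with the same total, and their share of the signal rose in both sexes (from 9.001% to 10.3% in males and from 4.51% to 6.19% in females; exact permutation tests, adjusted p = 0.0291 and 0.0159). Amino acid transporters had 2 of 19 differences higher and 10 lower, and biogenic amine genes 9 of 18 higher and 6 lower.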

How the data were processed

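Total RNA of brains was sequenced in 20 libraries, 5 in each of 4 groups of sex and diet. HISAT2 was the aligner, per the submitters' processing notes. How reads were counted, on which build, with which annotation and whether by strand is not given in the sources used here. Overlapping genes may therefore share reads. The deposited values are a normalised signal for each gene: in each of 2 tables, 1 per sex and scaled apart, the authors divided gene counts by a size factor. DESeq2 as the tool, and the removal of long non-coding RNAs, rest on how the tables are named. In each library 100% of values were whole multiples of 1 read within 0.01, which gave the read counts used for edgeR and DESeq2. No 2 libraries of a group agreed within sampling noise (smallest chi-square per degree of freedom 7.55 over 40 pairs). Of 12441 names 12425 matched the reference gene tables.

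Genes were tested with limma 3.58.1 in R 4.3.3 on log2(value + 1), the prior variance following mean signal, in 1 fit over 20 libraries and 4 group means, 2-sided, with Benjamini-Hochberg adjustment over 9766 genes and a threshold of 0.05. A scale factor per table cancels in the contrast, except in part where values are near the 1 that was added. The limma fit was tested on simulated reads with known differences between the sexes. Shares of marker lists were compared by exact permutation, where the smallest p is 0.00794. The gene lists (46) were described by counts and medians. Genes were named by rule: per direction the 8 smallest p for the difference, 8 opposite genes per pattern and 6 shared per sign by the smaller of the 2 changes (all with a mean of 20 or more in 1 group), and up to 4 members per list. Of 101 named genes 97 followed it, and Ilp5, Ilp6, Sesn and Def did not; 1 gene that the rule gave is not reported here. The members and lists were chosen with earlier results of these data known. Alternatives were pseudocounts of 0.5 and 8, no filter, a filter of 50, same total, same upper quartile, robust moderation, library weights, replicate blocks, each library left out, edgeR 4.0.16 and DESeq2 1.42.0.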

Additional observations from a re-analysis of the deposited data

Results flagged for a closer look

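The male and female changes differed by the test of the difference itself for 5106 genes. For the genes named in the report, that difference (male change minus female change, log2) was as follows, each with an adjusted p from limma under 0.05.

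Among detoxification and stress genes it was -4.69 for GstE7, -3.65 for GstE6, -3.10 for GstD9, -1.99 for Cat, -1.30 for Gclc and -1.09 for ref(2)P. For Cyp309a2 it was -4.06, for Cyp9b2 -2.72 and for Ugt37B1 -6.70. Protein turnover and synthesis genes gave -0.87 for Prosalpha4, -1.41 for Hsc70-4, -1.64 for Gp93, -3.20 for Hsp68, -0.89 for Hsp60A, -0.98 for Non1, -1.05 for SerRS and -0.92 for RpS13.

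In metabolism it was -3.36 for Men, -8.18 for tobi, -2.86 for fbp, -2.78 for Idh, -3.68 for Sodh-1, -4.56 for Lip2, -4.21 for FASN2, -2.08 for Lsd-1 and -2.65 for AcCoAS. Amino acid genes gave -3.61 for Shmt, -3.11 for Oat, -3.80 for Argl, -3.15 for CG11899, -2.07 for trbl, -0.83 for Gs2, -1.37 for NAAT1 and -1.58 for Eaat1. Lsp2 gave -12.73 (-10.44 with a pseudocount of 8) and Sirup 2.48.

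Neuronal and hormonal genes gave 1.54 for Grik, 1.66 for clumsy, 0.78 for GluRIA, 0.81 for nAChRalpha2, 0.55 for VAChT, 1.44 for Or63a, 3.18 for CNMa, 1.32 for Proc, 1.02 for Dh31, 0.63 for sNPF and -3.38 for PK1-R. CCHa2 gave -3.47, Ilp3 2.02, Ilp5 -1.11, ImpL2 -1.22, upd2 -2.41, Thor 1.07 and Sesn 0.96. The difference was 1.01 for Ddc, -1.33 for ple, -0.86 for cry, -1.76 for to and -0.69 for vri, and the muscle genes gave 2.37 for TpnC41C, 1.44 for Act87E and 1.90 for Mlc1.

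Immune and stress peptides gave -3.76 for Listericin, -2.95 for Drs, -3.11 for AttA, -1.60 for spz, -1.41 for Rel, 3.19 for TotA and 4.08 for TotC. Genes with no role given here were phu (7.00), CG43050 (3.69), CG4822 (1.74), CG33093 (6.15), CG40298 (2.72), nw (2.87), CG10621 (-6.06), CG16898 (-9.04), CG1979 (-8.15), CG32444 (-5.85), CG7675 (-3.27), CG31296 (-8.00), CG34227 (-7.01), CG9701 (-6.50), CG34456 (-7.05), vrs (-4.67) and CG10357 (-5.89), and the mucin gene Muc68Ca gave -6.34.

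In 33 of the 404 groups of 5 libraries tested for the named genes, 1 library stood further from the other 4 than Dixon's 95% value of 0.71 allows; chance gives about 1 in 20 groups. Values are normalised signal. Female HPLC replicate 1 held ple at 2227.0 (1943 to 2025 in the others). Female HPLC replicate 2 held CG10357 at 11.2 (0 to 2.59 in the others). Female HPLC replicate 3 held CG7763 at 1057.0 (623 to 708 in the others), Lip2 at 869.0 (576 to 652 in the others), Shmt at 57506.0 (43136 to 45574 in the others), Argl at 12506.0 (8703 to 9397 in the others), Sodh-1 at 21405.0 (12111 to 14489 in the others) and Def at 89.2 (46.6 to 55.1 in the others). Female HPLC replicate 4 held Gclc at 2286.0 (2773 to 2899 in the others). Female LPHC replicate 1 held AttA at 7422.0 (2604 to 3281 in the others). Female LPHC replicate 2 held CG10357 at 70.9 (31.1 to 39.2 in the others), ppk15 at 58.2 (27 to 34 in the others) and Hsp68 at 5398.0 (2006 to 2795 in the others). Female LPHC replicate 4 held Sirup at 4509.0 (3237 to 3572 in the others), CG10621 at 28953.0 (23154 to 24064 in the others), CG1979 at 719.0 (934 to 1021 in the others), CG9701 at 1207.0 (2206 to 2605 in the others), Rel at 6480.0 (8049 to 8188 in the others) and ple at 2856.0 (3920 to 4349 in the others). Male HPLC replicate 2 held phu at 251.0 (114 to 148 in the others). Male HPLC replicate 3 held CG40298 at 85.6 (32.7 to 42.9 in the others). Male HPLC replicate 4 held sNPF at 6009.0 (5605 to 5680 in the others). Male HPLC replicate 5 held nw at 23.8 (11 to 14.6 in the others). Male LPHC replicate 1 held to at 17358.0 (26645 to 29751 in the others). Male LPHC replicate 2 held CG10357 at 16.7 (0 to 4.52 in the others). Male LPHC replicate 3 held CG14191 at 22.0 (0.807 to 4.18 in the others), clumsy at 397.0 (548 to 606 in the others) and AttA at 406.0 (105 to 156 in the others). Male LPHC replicate 4 held TotC at 21653.0 (715 to 6650 in the others), TotA at 36319.0 (1693 to 9986 in the others), CG30098 at 114.0 (16.1 to 36.3 in the others), Gp93 at 4310.0 (2613 to 3084 in the others) and Ilp6 at 1624.0 (745 to 980 in the others).

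Yolk protein genes made up 0.118% of the signal in male HPLC replicate 4 against 0.00666 to 0.00709% in the other 4, and with eggshell genes added the share was 0.119%. Without that library the difference between the sexes was called for 4903 genes.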

How the results depend on the processing

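Under every alternative the count of genes with a diet-by-sex difference stayed within 1.5 times of 5106, from 4644 to 5624, and with 1 library left out it ran from 4805 to 5295. Recovered reads gave 5238 calls with edgeR and 5349 with DESeq2. Giving all libraries the same total changed class counts past 1.5 times: genes opposite with the male higher numbered 220 in place of 564, shared higher 1342 in place of 201, shared lower 153 in place of 300, unequal higher 447 in place of 62 and unequal lower 266 in place of 432. The same upper quartile gave 519 shared higher and 152 unequal higher. Both scales move the median of all genes, as stated in the report. The replicate numbers did not pair the libraries: same-numbered libraries correlated between -0.26 and 0.244 over 30 pairs, 5 of them above 0.1, and 4 libraries correlated best with their own number. With the replicate number as a block the count was 4868, and 4644 with a replicate block within sex. The differences of the other named genes kept their side of the threshold under all alternatives, except CG10073, CG30002 and CG7763, described in the report. Without the yolk protein genes in the sum, 3 differences in shares lost their call: haemocyte genes in males (adjusted p = 0.0537), odorant-binding proteins (0.194) and male reproductive tract genes (0.0815) in females, all by exact permutation.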

Other observations

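Counts for the lists not described above are read against all genes, of which 22.7% had a higher and 29.6% a lower difference, 52.3% in all; sex determination genes (45%) lay below that share, and lipoproteins (55.6%), haemocyte markers (63.2%), odorant-binding proteins (65.2%), hormone genes (65.4%) and activity-regulated genes (80%) above it, with no test of the lists. Of 23 odorant-binding protein genes, carriers of odours and pheromones, 6 differences were higher and 9 lower in males, and their summed share of the signal fell from 0.303% to 0.154% in males and was 0.315% and 0.382% in females. Lipoproteins and lipid carriers had 1 of 18 differences higher and 9 lower, and haemocyte markers 3 of 19 higher and 9 lower. Of 26 ecdysone and juvenile hormone genes 8 were higher and 9 lower. Activity-regulated genes split evenly (6 of 15 higher and 6 lower), and sex determination and dosage compensation genes had 7 of 20 higher and 2 lower.

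All 5 tested gut genes had a lower difference, with 4 falling in males and 3 rising and 2 falling in females. Of 8 yolk and eggshell genes tested, 1 difference was lower, and of 3 male reproductive tract genes 1 was lower.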
